A study of Mus musculus with 6 samples.

Results

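The genes described here are 7 stress-induced genes of mouse, Fgf21, Gdf15, Stc1, Stc2, Nupr1, Chac1 and Trib3, chosen by name as secreted stress hormones and as late effectors of the transcription factor ATF4. They were taken from the deposited tables by gene symbol, ignoring case, and each stood on 1 row, so 7 of the 21046 named features in the table were followed. The study sequenced total RNA of mouse embryonic fibroblasts (MEFs, connective tissue cells grown from embryos) in 6 libraries. The 3 Ufl1-KO libraries carry the genotype label Ufl1-ko, a loss of the enzyme gene Ufl1, and the 3 NC libraries carry the genotype label NC, an abbreviation that is not spelled out, for what the treatment label calls the control. All libraries belong to a series whose title speaks of knockdown and of hypoxia for 24 hours, while the labels of the single libraries give no oxygen condition, so only genotype was compared. The labels name no cell line, clone or separate culture. A difference between 2 cell lines therefore cannot be told apart from an effect of genotype, and a p-value here sets a difference against library-to-library variation that could be purely technical.

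The integrated stress response is a shared answer of cells to amino acid shortage, misfolded protein in the endoplasmic reticulum (ER), haem shortage and double-stranded RNA. Kinases that sense these conditions phosphorylate the initiation factor eIF2, which lowers most protein synthesis but favours translation of the mRNA for ATF4. ATF4, often with the partner CHOP (gene Ddit3) or a C/EBP protein, then switches on genes of amino acid supply and a later set that includes the hormones FGF21 and GDF15, the pseudokinase TRIB3, the glutathione-degrading enzyme CHAC1 and the chromatin protein NUPR1. The stanniocalcins STC1 and STC2 are secreted glycoproteins induced by ER stress and by hypoxia. UFL1 is the ligase that attaches the ubiquitin-like protein UFM1 to its targets, many of them at the ER.

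The promoters of 4 of these genes are shown because they hold the sequence that ATF4 dimers are known to bind, and because the mRNA was called lower for 3 of them and was not called for Nupr1. Each is a RefSeq window on build GRCm38.p6, written on the gene's strand from 250 bases before the annotated start to 50 bases after it. Capitals mark matches to TGATGNAA, the core of the C/EBP-ATF response element, here all read on the opposite strand. The windows lie at chr7:45615441-45615740 for Fgf21 (minus strand), chr7:126625421-126625720 for Nupr1 (minus strand), chr2:119350992-119351291 for Chac1 (plus strand) and chr2:152344011-152344310 for Trib3 (minus strand).
Fgf21: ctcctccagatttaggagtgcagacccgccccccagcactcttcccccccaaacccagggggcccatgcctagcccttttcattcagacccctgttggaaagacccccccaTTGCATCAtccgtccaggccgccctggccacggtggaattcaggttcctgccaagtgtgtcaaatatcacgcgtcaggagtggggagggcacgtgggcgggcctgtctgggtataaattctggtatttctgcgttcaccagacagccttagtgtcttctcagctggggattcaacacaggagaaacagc
Nupr1: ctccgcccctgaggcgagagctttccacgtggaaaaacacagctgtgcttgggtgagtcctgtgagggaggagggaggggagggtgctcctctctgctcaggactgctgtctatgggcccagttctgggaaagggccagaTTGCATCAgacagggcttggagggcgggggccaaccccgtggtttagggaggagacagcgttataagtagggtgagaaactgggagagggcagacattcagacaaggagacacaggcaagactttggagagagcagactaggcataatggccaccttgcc
Chac1: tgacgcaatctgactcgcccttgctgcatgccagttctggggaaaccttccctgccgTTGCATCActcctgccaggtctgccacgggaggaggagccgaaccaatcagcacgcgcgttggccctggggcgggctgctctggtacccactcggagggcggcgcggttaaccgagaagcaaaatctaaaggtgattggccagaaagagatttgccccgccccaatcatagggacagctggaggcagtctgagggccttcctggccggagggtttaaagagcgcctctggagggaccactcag
Trib3: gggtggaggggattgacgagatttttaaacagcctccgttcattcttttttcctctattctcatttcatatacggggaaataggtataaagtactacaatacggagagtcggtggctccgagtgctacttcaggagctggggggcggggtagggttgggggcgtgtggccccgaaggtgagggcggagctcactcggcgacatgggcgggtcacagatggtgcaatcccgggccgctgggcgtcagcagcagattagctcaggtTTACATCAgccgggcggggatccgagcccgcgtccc

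Promoter windows were found for 6 of the 7 genes, in 7 windows since 2 were given for Gdf15 and 1 for each other gene. The gene annotation (GENCODE M21) holds 6 transcript starts for Nupr1, 5 for Stc2 and 3 for Trib3. The Nupr1 window lies inside the annotated gene, whose first base is at 126630861. Starts outside the windows were not searched. TGATGNAA occurred in 4 of the 7 windows, against 3.97% of the 32851 promoter windows of the same length in the table. In Fgf21, Nupr1 and Chac1 the match was TTGCATCA on the gene's strand, and it began 139, 110 and 193 bases before the start. In Trib3 the match was TTACATCA and lay after the start, at bases 15 to 22. The palindromic cyclic AMP response element TGACGTCA was in none of the 7 windows and in 1.79% of all windows. Of the cores of the hypoxia response element, ACGTG was found in Fgf21, in Nupr1 and at the second Gdf15 start, each time as a CACGTG palindrome that matches on both strands, and GCGTG was found in Fgf21, Stc2, Chac1 and Trib3. These cores stood in 19.6% and 32.4% of all windows. A match describes the letters of a window and is not a measured binding site.

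**Figure D1:**
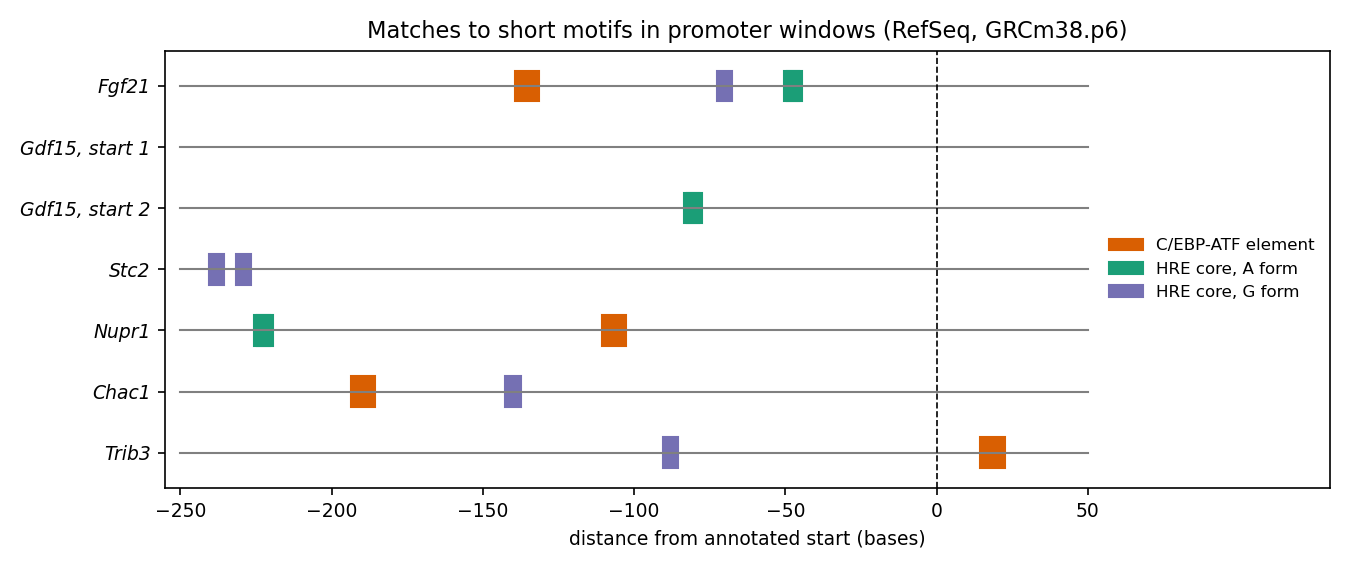
Positions of motif matches in the 7 promoter windows, with distance from the annotated start in bases on the horizontal axis and 1 line per window. Blocks mark the C/EBP-ATF element (TGATGNAA) and the A and G forms of the hypoxia response element core. The C/EBP-ATF element is present in the windows of Fgf21, Nupr1, Chac1 and Trib3 and lies after the start in Trib3.

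The libraries held 17472432 to 21831860 estimated counts in Ufl1-KO and 15887011 to 19779066 in NC. Ufl1 itself had 3.08, 3.76 and 4.60 CPM (counts scaled to a common TMM-corrected library total) in the Ufl1-KO libraries, against 22.9, 27.0 and 27.0 CPM in the NC libraries. Of 11 fibroblast markers, Lum had no count in any Ufl1-KO library and at most 2 in NC, and Thy1 was under 1 CPM in every library. The summed level of the 11 was 13743 to 13832 CPM in Ufl1-KO and 24262 to 28966 CPM in NC. Markers of blood cells summed to 15.7 to 20.7 CPM in Ufl1-KO and 29.5 to 34.9 CPM in NC, and Cd3e had no count in any library. Endothelial markers summed to 5.51 to 6.52 CPM in Ufl1-KO and 4.83 to 7.42 CPM in NC, and epithelial markers to 322 to 333 CPM in Ufl1-KO and 306 to 410 CPM in NC. Markers of muscle and neurons summed to 11.4 to 13.2 CPM in Ufl1-KO and 5.71 to 7.66 CPM in NC. Their part in the results below was not tested. NC replicate 1 stood apart, with a root mean square log2 difference over all tested genes of 0.43 and 0.41 to the other NC libraries, which differed by 0.28, while the Ufl1-KO libraries differed by 0.24 to 0.27. For the 7 genes and the gene lists, fold changes, counts and medians that leaving it out moved by over 1.5 times, or calls that it changed, are also given without it.

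Of the 7 genes, 6 had enough counts to be tested, 4 of these were lower in Ufl1-KO and none was higher at an adjusted p under 0.05. The endocrine hormone gene Fgf21 fell most, to 10.5% of its NC level. Trib3, Stc2 and Chac1 fell to between 48.7% and 56.3%, while Stc1 and Nupr1 did not pass the test and Gdf15 was barely detected. As background, 33.1% of the 12580 genes tested were called lower, 33.0% higher and 66.0% in either direction, and the median log2 fold change was -0.84 over the 6 tested genes and 0.01 over all tested genes. Without NC replicate 1 the median over the 6 genes was -0.50, beside 0.02 over all tested genes. By count, 4146 genes were higher and 4163 lower, and with library size scaling alone 5471 were higher and 3191 lower. In the fits to FPKM 5251 to 5293 were higher and 3030 to 3062 lower. Without NC replicate 1, 4880 of 12734 genes were higher and 4693 lower, so that fit called 75.2% of all genes. With library size scaling, and in each fit to FPKM, 3 of the 7 genes were lower, all but Chac1 of the 4. The members were chosen by name, so this count is a description and not a test of the group. In bulk RNA, fewer cells expressing a gene and less of its mRNA per cell cannot be told apart. All fold changes are Ufl1-KO over NC from edgeR's quasi-likelihood test with Benjamini-Hochberg adjustment over all tested genes, with the standard error (SE).

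**Figure D2:**
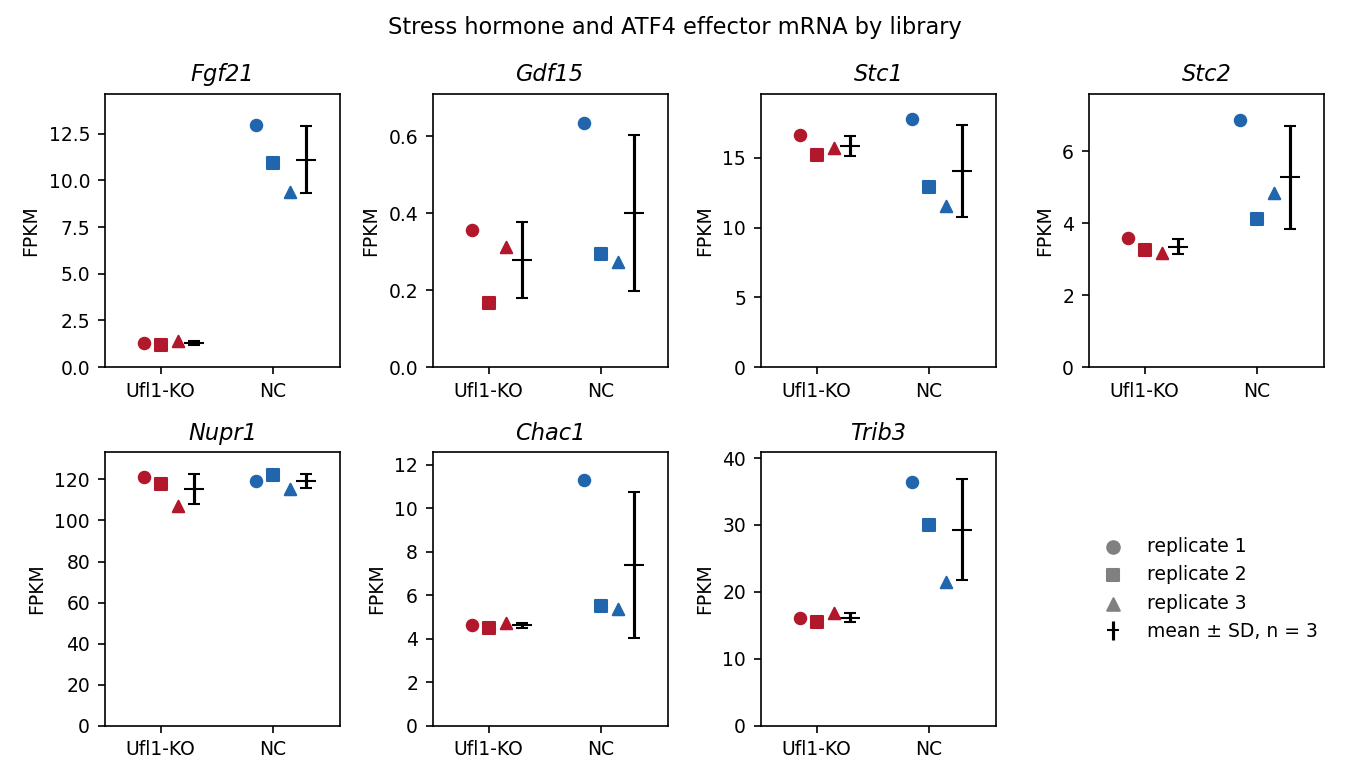
FPKM of each of the 7 genes in every library, with Ufl1-KO (red) left of NC (blue), 1 panel per gene and a vertical axis that starts at 0. Symbols mark the replicate number, and bars give the mean ± SD of 3 libraries. Fgf21 separates most, at 1.31 ± 0.11 FPKM in Ufl1-KO and 11.1 ± 1.8 FPKM in NC, and NC replicate 1 is the highest NC library for 6 of the 7 genes.

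Fgf21 encodes a fibroblast growth factor that circulates as a hormone and signals through FGF receptors with the co-receptor beta-Klotho. The gene lies on chromosome 7 at 45613886 to 45615490 (GRCm38, GENCODE M21, minus strand, 3 exons), and no other annotated gene overlaps it. It had 27, 20 and 28 counts in the Ufl1-KO libraries, or 1.17, 1.09 and 1.26 CPM, against 217, 206 and 142 counts in the NC libraries, or 13.0, 11.2 and 9.67 CPM. The lowest NC library was far above the highest Ufl1-KO library, and the groups did not overlap. The log2 fold change was -3.25 (SE 0.18, adjusted p = 1.67e-06), a 9.54-fold lower level in Ufl1-KO, and 0.572% of all tested genes had a more negative fold change. Each of 18 processing alternatives called it lower, with log2 fold changes from -3.35 to -2.38, and it was -3.13 without NC replicate 1.

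Gdf15, on chromosome 8 at 70629393 to 70632456 (minus strand), encodes a divergent member of the TGF-beta superfamily that acts on the hindbrain through the receptor GFRAL and its partner RET. It had 12, 4 and 9 counts in Ufl1-KO, against 17, 9 and 6 counts in NC, or 0.356, 0.166 and 0.313 FPKM in Ufl1-KO, against 0.635, 0.295 and 0.274 FPKM in NC. The levels rest on few reads, the groups overlapped, and the gene did not pass the filter on low counts. Fitted without that filter, its log2 fold change was -0.70 (SE 0.52, adjusted p = 0.295), so no difference was detectable at this depth.

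Of the stanniocalcin genes, Stc2 fell and Stc1 was not called. Stanniocalcins were first known in fish as hormones that lower blood calcium, and in mammals they also inhibit the pappalysin proteases, which release insulin-like growth factors from their binding proteins. Stc2 (chromosome 11, 31357307 to 31370074, minus strand) had 13.4, 12.3 and 11.8 CPM in the Ufl1-KO libraries, against 28.5, 17.4 and 20.6 CPM in the NC libraries. The groups did not overlap, and NC replicate 1 was the highest. The log2 fold change was -0.83 (SE 0.17, adjusted p = 0.0023), and -0.59 (SE 0.10) without NC replicate 1.

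Stc1 (chromosome 14, 69029238 to 69041804, plus strand) had 66.3, 60.8 and 61.9 CPM in Ufl1-KO, against 78.9, 58.1 and 52.3 CPM in NC. All 3 Ufl1-KO values lay between the highest and the middle NC value. The log2 fold change was 0.00 (95% interval -0.31 to 0.31, adjusted p = 0.988). Without NC replicate 1 it was 0.20 (SE 0.06, adjusted p = 0.00949), so that the gene was then called higher. That fit called 75.2% of all tested genes. The antisense gene Gm41192 overlaps 270 of the exon bases of Stc1, and without a stated strand setting its reads could not be told apart from those of Stc1. The log2 ratio of Stc2 to Stc1 counts within a library, which needs no scaling between libraries, was -2.31, -2.31 and -2.39 in Ufl1-KO, against -1.47, -1.74 and -1.34 in NC. Every Ufl1-KO library had less Stc2 for its Stc1 than any NC library, with a difference of -0.82 (exact two-sided permutation test, p = 0.1, the smallest that 3 libraries against 3 allow). This ratio was chosen after the values were seen.

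Trib3 encodes a pseudokinase of the Tribbles family that binds AKT and the ubiquitin ligase COP1 and is known to restrain ATF4 and CHOP in a feedback loop. The gene lies on chromosome 2 at 152337422 to 152344032 (minus strand). It had 30.8, 29.8 and 32.0 CPM in Ufl1-KO, against 78.0, 65.2 and 47.1 CPM in NC. The Ufl1-KO libraries were nearly level, the NC libraries were spread, and the groups did not overlap. The log2 fold change was -1.04 (SE 0.16, adjusted p = 0.000404), and -0.86 (SE 0.10) without NC replicate 1. Trib3 was called lower in each of 18 alternatives, from -1.21 to -0.79.

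Chac1 encodes a gamma-glutamylcyclotransferase that breaks down glutathione. The gene lies on chromosome 2 at 119351229 to 119354381 (plus strand). It had 7.21, 6.98 and 7.26 CPM in Ufl1-KO, against 19.5, 9.67 and 9.53 CPM in NC. NC replicate 1 was 2.03-fold above the other NC libraries, and even these lay above all Ufl1-KO libraries. The log2 fold change was -0.85 (SE 0.26, adjusted p = 0.0179). It came to -0.41 (SE 0.13, adjusted p = 0.00635) without NC replicate 1, and the call was lost when any single Ufl1-KO library was left out (adjusted p from 0.0513 to 0.0576), with library size scaling and in the 3 fits to FPKM.

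Nupr1 encodes a small, largely unfolded protein that binds chromatin and is induced by many kinds of stress. The gene lies on chromosome 7 at 126623249 to 126630861 (minus strand). It had 92.6, 90.6 and 80.9 CPM in Ufl1-KO, against 94.1, 96.5 and 91.3 CPM in NC. The groups overlapped, and NC replicate 1 did not stand out. The log2 fold change was -0.09 (95% interval -0.26 to 0.07, adjusted p = 0.273), so the interval allows a fall of at most 0.26 on the log2 scale. With library size scaling, which moves the median of all genes to 0.18, the value was 0.08 and also not called. The promoter windows of Fgf21, at -3.25, and of Nupr1, at -0.09, both hold TTGCATCA, as shown above. For Nupr1 this covers 1 start only, and its other annotated starts were not searched.

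For the 4 genes called lower, permuting the 6 libraries exactly (two-sided, on log2 CPM) gave p = 0.1, the lower limit of this design. It gave 0.2 for Nupr1, 0.4 for Gdf15 and 1.0 for Stc1. CPM did not overlap between the groups for the 4 called genes, beside 71.2% of all tested genes. Every Ufl1-KO library also had less Fgf21 for its Trib3 than any NC library. The log2 ratio of Fgf21 to Trib3 counts was -4.69, -4.74 and -4.64 in Ufl1-KO, against -2.58, -2.54 and -2.28 in NC, a difference of -2.22 (exact two-sided permutation test, p = 0.1). The ratio of Chac1 to Trib3 was -2.09, -2.09 and -2.14 in Ufl1-KO, against -2.00, -2.75 and -2.30 in NC. These ranges overlapped, with a difference of 0.24 (exact two-sided permutation test, p = 0.4). These ratios too were chosen after the values were seen.

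**Figure D3:**
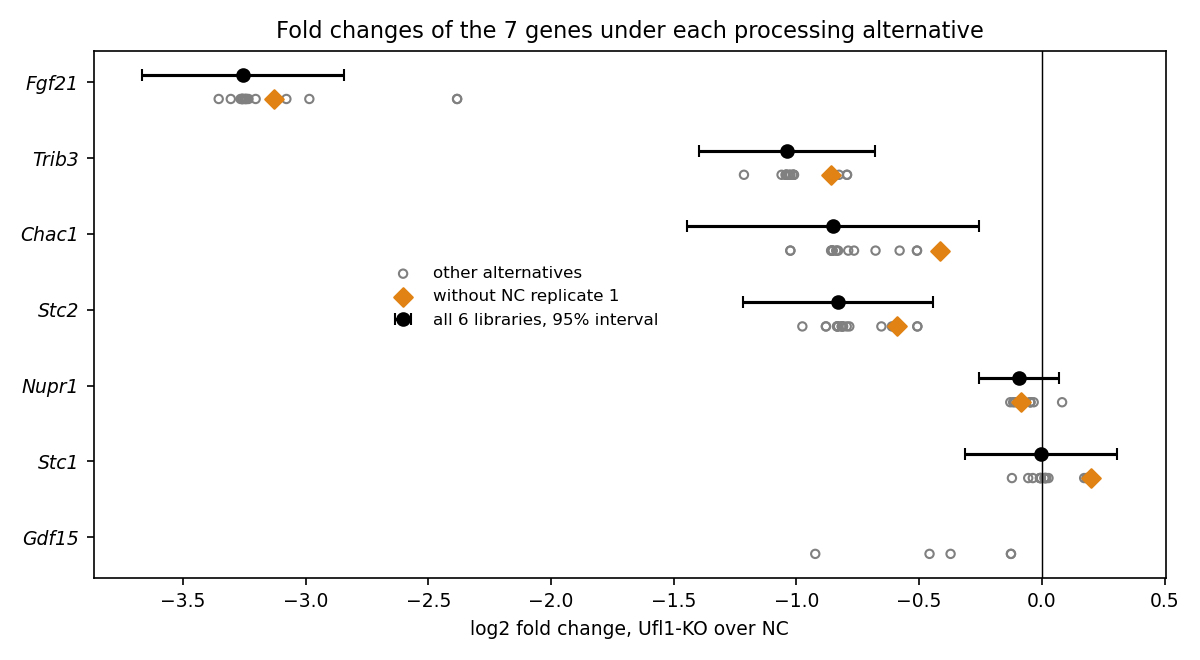
Log2 fold change of Ufl1-KO over NC for the 7 genes, on the horizontal axis. Black points give the fit to all 6 libraries with its 95% interval, diamonds the fit without NC replicate 1, and open circles the other alternatives. Fgf21 and Trib3 stay left of 0 in every fit, Chac1 moves to -0.41 without NC replicate 1, and Stc1 lies on both sides of 0.

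FPKM, which divides by gene length, allows the 7 mRNAs to be set against each other. In Ufl1-KO the order was Nupr1 at 115 ± 7.4 FPKM, Trib3 at 16.1 ± 0.68, Stc1 at 15.9 ± 0.73, Chac1 at 4.62 ± 0.13, Stc2 at 3.34 ± 0.21, Fgf21 at 1.31 ± 0.11 and Gdf15 at 0.278 ± 0.0996 FPKM (mean ± SD, n = 3). Only Trib3 and Stc1 overlapped among neighbours in that order. In NC the order was Nupr1 at 119 ± 3.4 FPKM, Trib3 at 29.3 ± 7.5, Stc1 at 14.1 ± 3.3, Fgf21 at 11.1 ± 1.8, Chac1 at 7.39 ± 3.38, Stc2 at 5.27 ± 1.42 and Gdf15 at 0.401 ± 0.203 FPKM (n = 3). In NC the libraries of Stc1 and Fgf21, of Fgf21 and Chac1, and of Chac1 and Stc2 overlapped. Fgf21 thus had rank 6 of the 7 in Ufl1-KO and rank 4 in NC. Nupr1 was the most abundant of the 7 in both groups, 7.16 times the next mRNA in Ufl1-KO and 4.06 times in NC.

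The genes also varied within NC. The coefficient of variation of CPM was 2.08% in Ufl1-KO and 44.4% in NC for Chac1, and 3.47% in Ufl1-KO and 24.5% in NC for Trib3. It was 6.59% in Ufl1-KO and 25.7% in NC for Stc2, 4.58% in Ufl1-KO and 22.2% in NC for Stc1, and 7.32% in Ufl1-KO and 14.9% in NC for Fgf21. For these 5 genes the Ufl1-KO libraries were the closer set. They were so over all tested genes too, with root mean square log2 differences of 0.24 to 0.27 in Ufl1-KO and 0.28 to 0.43 in NC. Nupr1 went the other way, at 7.07% in Ufl1-KO and 2.79% in NC. Of the 6 tested genes, 5 had their highest NC value in replicate 1, as did 41.3% of all tested genes. Set against the mean of NC replicates 2 and 3 on the log2 scale, replicate 1 was higher by 1.02 for Chac1, 0.59 for Stc2, 0.52 for Stc1, 0.49 for Trib3 and 0.33 for Fgf21, and by 0.003 for Nupr1. The mRNA of Atf4 lay the other way, with 619 CPM in NC replicate 1 and 823 and 759 CPM in replicates 2 and 3, and so did Ddit3 with 125 CPM against 200 and 159 CPM. Most genes of the 2 ATF4 lists described below did not share this. NC replicate 1 was the highest NC library for 9 of 13 branch regulators and 29 of 39 other targets tested. The median log2 difference of replicate 1 from replicates 2 and 3 was 0.18 for the regulators and 0.28 for the other targets. It was -0.004 over all tested genes. In the comparison of genotypes, Atf4, Ddit3 and the 4 called genes were all lower in Ufl1-KO.

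Of 13 regulators of the ATF4 branch, all tested, 7 fell, 4 rose and 2 were not called. Their median log2 fold change was -0.64, beside 0.01 over all tested genes, of which 33.0% were called higher and 33.1% lower. Without NC replicate 1, 6 regulators rose and 7 fell, in a fit that called 75.2% of all tested genes, against 66.0% with all 6 libraries. Ppp1r15b (0.69, adjusted p = 1.08e-09) and Eif2ak4 (0.21, adjusted p = 0.0122) were then also called higher. The transcription factors Cebpg (-1.13, SE 0.06), Atf4 (-1.56, SE 0.10), Atf3 (-1.61, SE 0.11) and Ddit3 (-2.22, SE 0.16) had the smallest p. Atf4 had 263, 243 and 241 CPM in Ufl1-KO, against 619, 823 and 759 CPM in NC, and Ddit3 had 38.0, 31.5 and 34.3 CPM in Ufl1-KO, against 125, 200 and 159 CPM in NC. The groups were well separated for both. The 4 that rose were Eif2ak1 (0.66), Eif2ak2 (1.00) and Eif2ak3 (0.60), which encode kinases of eIF2, and Eif2s1 (0.23), which encodes its alpha subunit. These 4, Ppp1r15b and Eif2ak4 are named although the rule for named genes did not take them.

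Among 40 other targets of ATF4, 39 were tested, of which 30 fell, 2 rose and 7 were not called. Their median was -0.73. The folate enzyme gene Aldh1l2 (-1.89, SE 0.07), the mitochondrial phosphoenolpyruvate carboxykinase gene Pck2 (-1.73, SE 0.07), the asparagine synthetase gene Asns (-1.41, SE 0.07) and Ndrg1 (-1.19, SE 0.06) had the smallest p. The 2 that rose were the death receptor gene Tnfrsf10b (0.65, SE 0.10) and the glutamine transporter gene Slc1a5 (0.35, SE 0.10), named after their values were seen. The call for Slc1a5 ended without Ufl1-KO replicate 2 (adjusted p = 0.0629). Without NC replicate 1, 5 rose and 30 fell, and the median was -0.57, in the fit that called 75.2% of all tested genes. With library size scaling 26 of 39 fell, and in the FPKM fits 22 to 25 of 40 fell. The Fgf21 value of -3.25 was more negative than that of any tested gene of these 2 lists.

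**Figure D4:**
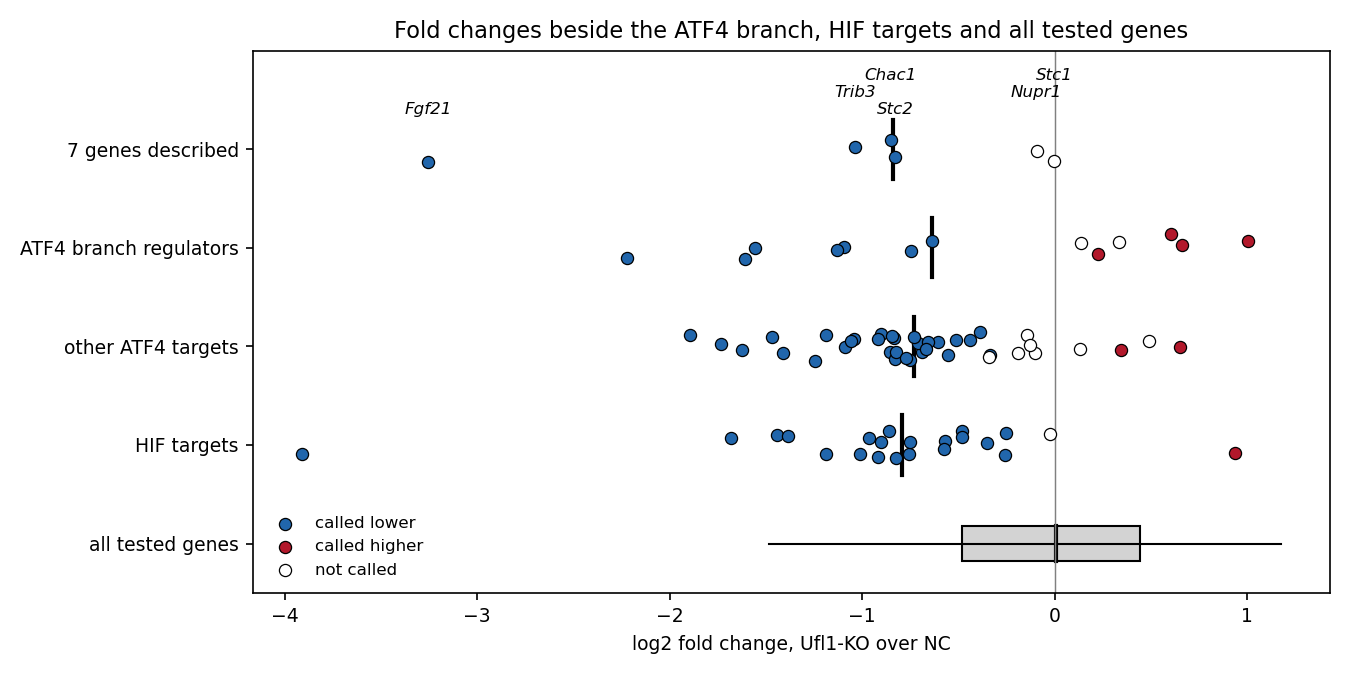
Log2 fold changes of Ufl1-KO over NC for the tested genes among the 7, the ATF4 branch regulators, the other ATF4 targets and the genes that hypoxia-inducible factors (HIFs) switch on, with 1 point per gene and thick bars at the medians. The lowest row gives all tested genes as a box from the 25th to the 75th percentile with a line from the 5th to the 95th. Fgf21 lies to the left of every ATF4 branch gene, and Stc1 and Nupr1 lie at 0.00 and -0.09.

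The stanniocalcin genes are also known as targets of HIF, and GDF15 and glutathione genes answer to p53 and NRF2, so lists of these were set beside them. As background for each list, 33.0% of all tested genes were called higher and 33.1% lower. Of 22 other HIF targets, 20 fell, 1 rose and 1 was not called, and the median was -0.79. Ca9 (-3.91, SE 0.11), Ca12 (-1.68, SE 0.07), Ndrg1 and the growth factor gene Vegfa (-0.96, SE 0.06) had the smallest p, and Pfkfb4 (0.94, SE 0.12) was the 1 that rose. Without NC replicate 1, 2 rose and 19 fell, in the fit that called 75.2% of all tested genes. With library size scaling 17 HIF targets fell, and in each FPKM fit 16 fell. Ndrg1 and Ddit4 stand in the ATF4 list as well. Of 16 p53 targets, 7 rose, 4 fell and 5 were not called (median 0.04), with Perp (1.35), Ccng1 (1.12) and Eda2r (1.26) higher and Cdkn1a (-0.71) lower. Without NC replicate 1, 9 rose and 4 fell and the median was 0.35, beside 0.02 over all tested genes. The p53 median was 0.22 with library size scaling, where that of all tested genes was 0.18. In the FPKM fits it was 0.24 to 0.26, beside 0.04 to 0.17 over all tested genes. Of 12 NRF2 and glutathione genes, 11 were tested, 3 rose and 4 fell (median 0.02). Without NC replicate 1, 5 rose and 5 fell (median 0.14). Without Ufl1-KO replicate 1, 1 of them rose, in a fit where 3545 of all 12686 tested genes rose, against 4146 of 12580 with all libraries. The subunits of the enzyme that starts glutathione synthesis moved in opposite directions, with Gclc lower (-0.80, SE 0.08) and Gclm higher (1.01, SE 0.11). Hmox1 (-0.58) and Oplah (-0.36), which encodes the enzyme acting on the 5-oxoproline that CHAC1 releases, fell, and the call for Oplah was lost with library size scaling and in the FPKM fits.

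Of 10 relatives of the 7 genes in the table, 6 were tested, 3 rose, 2 fell and 1 was not called (median 0.62). Over all tested genes the shares were 33.0% higher and 33.1% lower. The Tribbles gene Trib1, whose product also recruits COP1, rose to 41.4, 44.5 and 42.1 CPM in Ufl1-KO, against 19.9, 6.62 and 8.78 CPM in NC (log2 fold change 1.86, SE 0.31). It was 2.50 without NC replicate 1. Trib2 fell (-0.54, SE 0.18), and its call ended without NC replicate 1 (-0.28, adjusted p = 0.0513), without any 1 Ufl1-KO library, with library size scaling and in the FPKM fits. Chac2, the constitutive relative of Chac1, had 9.43 ± 0.85 CPM in Ufl1-KO and 9.09 ± 0.19 CPM in NC (0.05, SE 0.12, adjusted p = 0.702). Among relatives of Gdf15, Gdf11 (1.55, SE 0.24) and Gdf10 (1.19, SE 0.31) rose, Gdf1 fell (-1.78, SE 0.17) and Mstn had no count in any library. Over 18 alternatives Gdf10 kept its call, but its value ranged from 0.20 to 1.39, and that of Gdf11 from 1.33 to 2.00. Gdf1 stands on 2 rows that were summed. Of the other endocrine fibroblast growth factors, Fgf23 had 0, 0 and 1 counts in Ufl1-KO, against 5, 24 and 8 counts in NC, and Fgf15 averaged 0.044 CPM in Ufl1-KO and 0.038 CPM in NC. Nupr2 averaged 0.23 CPM in Ufl1-KO and 0.15 CPM in NC, and none of these 3 passed the filter. Fitted without that filter, 3 relatives were called lower, the added gene being Fgf23, which rests on few reads.

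Of 16 receptor, partner and substrate genes, 12 were tested, 5 rose, 3 fell and 4 were not called (median 0.15). Of all tested genes, 33.0% were called higher and 33.1% lower. The co-receptor gene Klb for FGF21 had 2, 0 and 2 counts in Ufl1-KO and 0 in each NC library, and Gfral, the receptor gene for GDF15, had no count in any of the 6. Ret had 13, 4 and 4 counts in Ufl1-KO, against 4, 0 and 0 in NC. Fgfr1 was abundant at 293 ± 3.0 CPM in Ufl1-KO and 320 ± 46.8 CPM in NC and was not called (-0.13, SE 0.09, and 0.01 without NC replicate 1). The genes of the pappalysins, which stanniocalcins inhibit, moved in opposite directions at low levels. Pappa rose (1.30, SE 0.25) to 2.25 ± 0.41 CPM in Ufl1-KO, against 0.902 ± 0.106 CPM in NC, and Pappa2 fell (-2.54, SE 0.41) to 0.339 ± 0.243 CPM in Ufl1-KO, against 2.03 ± 0.26 CPM in NC. The pappalysin substrate gene Igfbp4 was not called (0.22, SE 0.11, adjusted p = 0.105, and 0.10 without NC replicate 1), but was called higher without NC replicate 3, with library size scaling and in the FPKM fits (up to 0.39). Igfbp5 averaged 0.080 CPM in Ufl1-KO and 0.140 CPM in NC.

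Among genes for partners of TRIB3, Akt1 rose (0.66, SE 0.09), Akt2 fell (-0.35, SE 0.06) and Cop1 was not called (0.08, SE 0.07). The call for Akt2 ended in the FPKM fits, and Cop1 was called higher in those fits and with library size scaling (up to 0.32). Notch1, whose processing CHAC1 has been reported to block, rose (0.84, SE 0.13), and Notch3 fell (-1.27, SE 0.09). Ggct, another gamma-glutamylcyclotransferase gene, had 3.35 ± 0.49 CPM in Ufl1-KO and 3.30 ± 0.50 CPM in NC (n = 3). Of the genes for partners of NUPR1, Ep300 (0.76, SE 0.15) and Msl1 (0.31, SE 0.11) were higher, and the call for Msl1 ended without any 1 of 5 libraries, all but NC replicate 1, and in the FPKM fit with no filter.

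The genes whose 6 values were most like each of the tested genes were found by Euclidean distance between centred log2 CPM over the 6 libraries, among 10451 genes. For Fgf21 these were Tnfrsf4 (distance 0.31) and Npas1 (0.36), with log2 fold changes of -3.36 for Tnfrsf4 and -3.03 for Npas1. Trib3 was nearest to Cldn3 (0.15) and Zc2hc1c (0.20), and Stc2 to Csrnp1 (0.13) and to Slc6a9 (0.15), a glycine transporter gene that is itself in the ATF4 list. Ccn1 (0.23) was among the 2 genes nearest to Chac1. It had 341, 332 and 337 CPM in Ufl1-KO, against 899, 494 and 526 CPM in NC, and like Chac1 was highest in NC replicate 1. Stc1 was nearest to Arid3a (0.11) and Iffo2 (0.13), and Nupr1 to Rbm41 (0.06) and Lamtor2 (0.07). Likeness of this kind is a description.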

How the data were processed

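Total RNA of 3 Ufl1-KO and 3 NC libraries was analysed. The authors deposited estimated counts per gene, which are not normalised, and FPKM values, which scale counts by gene length and library total, per the file headers. The submitters' processing notes give the builds GRCh38, hg38 and mm10, and the tools featureCounts 2.0.0, STAR 2.7.7a and fastp 0.20.1, with no role for any. No source used here gives the annotation or the strand setting. Of 22274 rows, 1225 name no gene (0.594% to 0.661% of counts) and were left out. Between 7.29% and 8.09% of values lay more than 0.001 from a whole number, so counts were rounded.

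Rows sharing the name of a described or listed gene were summed. Counts were tested with edgeR 4.0.16 in R 4.3.3 (quasi-likelihood test, TMM scaling, filterByExpr, genotype as the only term, two-sided, Benjamini-Hochberg adjustment, threshold 0.05), and the script was tested on simulated data. SE is the size of the log2 fold change divided by the square root of F. CPM uses TMM-scaled totals, and the permutation test used log2(CPM + 0.1). Alternatives were DESeq2 1.42.0, limma 3.58.1 (voom, and log2 of FPKM plus 1 or 0.1), other scalings and filters, a replicate block, summing of all rows sharing a name and leaving out each library. Replicates differed by more than sampling noise (chi-square per gene of 2.50 or more). Depth sets the precision for Gdf15 and other genes under about 1 CPM.

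Named genes were all 7 members, each detected gene of the lists of relatives and partners, Atf4, Ddit3, Asns, up to 4 genes with the smallest p per other list, and for each tested member the 2 nearest genes with an average log2 CPM of at least 2, leaving out predicted genes. Of these nearest genes, 1 is not reported here. The members and lists were chosen with earlier results of these data known.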

Additional observations from a re-analysis of the deposited data

How the results depend on the processing

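Over 18 alternatives, Fgf21, Trib3 and Stc2 were called lower each time and Nupr1 never was. Chac1 lost its call with library size scaling (-0.68), in the FPKM fits with pseudocount 1 (-0.51, with and without a filter) and with pseudocount 0.1 (-0.58). Leaving out single libraries gave -1.03 to -0.41 for Chac1, -0.12 to 0.20 for Stc1, 0 to 1 described genes called higher (Stc1, without NC replicate 1), 1 to 5 other ATF4 targets higher, 1 to 2 relatives lower, 1 to 2 HIF targets higher and 1 to 5 NRF2 and glutathione genes higher. The near-zero value of Stc1 changed sign with library size scaling (0.17), upper-quartile scaling (0.0109), limma-voom (0.0176), no filter (0.0109), the FPKM fits (0.18 and 0.20) and the replicate block (0.0167), and Nupr1 with library size scaling (0.0824). Library size scaling left 1 relative lower and 5 NRF2 and glutathione genes higher, and each FPKM fit gave 5 higher and 2 lower of the last list. With library size scaling 5471 genes were higher and 3191 lower, against 4146 and 4163 by TMM, and 5293 and 3050 with log2(FPKM + 1). Leaving out single libraries, the share of all tested genes called ranged from 56.7% without Ufl1-KO replicate 1 to 75.2% without NC replicate 1. The replicate numbers showed no clear pairing of the libraries. Deviations of equally numbered libraries correlated at 0.02, -0.13 and 0.04, and not every library correlated best with its own number. With 3 libraries per group, these correlations cannot decide whether equally numbered libraries shared a batch. With the replicate block 3969 genes were higher and 3976 lower, and none of the 6 tested genes changed its call. The causes of these changes were not tested.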
